A study of Mus musculus with 12 samples.

Results

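The T cell receptor genes were taken as all genes of the deposited count table whose biotype is a T cell receptor V, D, J or C gene, with pseudogenes left out. This gave 226 of 54532 genes: 144 V (variable), 70 J (joining), 8 C (constant) and 4 D (diversity) genes. Of these, 172 lie on chromosome 14 (alpha and delta loci), 39 on chromosome 6 (beta locus) and 15 on chromosome 13 (gamma locus). The symbols place 150 in the alpha locus, 39 in the beta locus, 15 in the gamma locus and 10 in the delta locus, 10 are V genes shared by alpha and delta, and 2 (B230359F08Rik and C920008G01Rik) carry no locus in their symbol.

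Bulk RNA-seq libraries were made from tumours that B16F10 melanoma cells, a pigmented line with wild-type Trex1, formed in male mice aged 8 to 12 weeks. The 6 iKO libraries came from hosts with both Trex1 copies floxed, and the 6 Ctrl libraries from hosts with 1 floxed and 1 wild-type copy. Trex1 encodes a cytosolic DNA exonuclease. Every host, Ctrl included, also carried a tamoxifen-activated Cre recombinase at the Rosa26 locus, which is active in most cell types, received 1000 tumour cells in the skin of each leg on day 0, and was dosed with tamoxifen (1 mg daily, 3 doses) starting on day 5. Tumours were taken on day 14. The implanted cells themselves kept Trex1 in both groups.

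The cell type label describes tumour tissue sorted as negative for CD45 (leukocytes) and for CD31 (endothelium), whereas the protocol states negativity for 1 or the other. The series text speaks of single immune cells, but the table held 1 column per tumour library. The labels do not tie libraries to mice, and each mouse bore 2 injection sites, so p-values measure only the spread between these libraries.

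An alpha-beta T cell carries a receptor built from an alpha and a beta chain, and a gamma-delta T cell one built from a gamma and a delta chain. In the thymus the Rag1 and Rag2 recombinase joins 1 V, 1 J and, for beta and delta, also D segments, and the joined exon is spliced to a constant gene. The delta locus lies inside the alpha locus and is removed when alpha rearranges. Gamma transcripts are also known from alpha-beta T cells, and transcripts of unrearranged constant genes exist, so a constant gene count does not identify a lineage. Mouse skin holds resident gamma-delta T cells beside the alpha-beta T cells that enter it.

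The segments themselves are short, which bears on how many reads they can collect. The D segments of the beta locus are shown because Trbd1 was the only D gene with a count.

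Trbd1: gggacagggggc

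Trbd2: gggactgggggggc

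The J segments below are the most counted of the first beta cluster, 2 members of that cluster that lack the common J motif, and the most counted of the second cluster. Capitals mark TTTGGNNNNGG or TTCGGNNNNGG, searched on the coding strand, which encodes the Phe-Gly-X-Gly motif of J segments. It was found in 55 of the 70 J genes (78.6%).

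Trbj1-3: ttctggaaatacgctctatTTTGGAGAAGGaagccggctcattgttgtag

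Trbj1-4: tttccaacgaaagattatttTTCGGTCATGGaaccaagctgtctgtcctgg

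Trbj1-5: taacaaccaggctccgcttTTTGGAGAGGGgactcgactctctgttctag

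Trbj1-6: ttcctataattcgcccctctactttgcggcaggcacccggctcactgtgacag

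Trbj1-7: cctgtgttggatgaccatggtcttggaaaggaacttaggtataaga

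Trbj2-7: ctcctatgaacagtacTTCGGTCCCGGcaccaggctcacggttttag

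The last 30 bases of 6 V genes follow, since these genes carry most of the V gene results below. Capitals mark TGTGCN on the coding strand, the cysteine codon that opens the third hypervariable loop and the first bases after it. It was found in the last 30 bases of 115 of 144 V genes (79.9%) and of 19 of 22 beta V genes (86.4%). Trbv20 is without the full motif, as its tgt is followed by gg.

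Trbv2: ggccacatacttcTGTGCCagcagccaaga

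Trbv20: cagaggcttatatctctgtggtgctaggga

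Trbv13-2: catcagtgtacttcTGTGCCagcggtgatg

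Trgv2: agccacctactacTGTGCAgtctggatgag

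Trav7-4: cgctctctacttcTGTGCAgctagtgagca

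Trav4-4-dv10: actcaggcacttacttcTGTGCTgctgagg

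The paired beta constant genes are nearly the same sequence: 495 of 518 coding bases matched (95.6%), and the first 259 were identical. The 60 coding bases where they differ most (positions 459 to 518 of the coding sequence) are given with the 11 differing bases in capitals. Reads from the identical stretch could have been given to either gene, and the rule by which the authors assigned them is not given in the sources used here.

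Trbc1: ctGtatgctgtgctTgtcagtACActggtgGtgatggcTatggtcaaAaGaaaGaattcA

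Trbc2: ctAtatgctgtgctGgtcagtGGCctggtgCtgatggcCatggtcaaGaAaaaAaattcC

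These sequences are from GENCODE M21 transcripts (GRCm38), in which all 226 genes were found with the same start and end as in the deposited table.

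Libraries held 29.8 to 35.5 M counts in iKO and 34.3 to 45.8 M in Ctrl. Melanoma markers (Dct, Mlana, Pmel and Tyr) were abundant in all libraries and summed to 9379 to 14330 CPM (counts over the TMM-scaled library size, times 1000000) in iKO and 13246 to 14179 CPM in Ctrl. Trex1 was listed at 0 counts in all 12 libraries, so the genotype could not be checked. Against the label of male hosts, Xist, the transcript of the inactive X chromosome, had 6869 counts in iKO 2 and 4124 in iKO 3, 2 to 247 in the other iKO libraries and 2 to 19 in Ctrl. Without these 2 libraries, the 4 tests of T cell receptor genes below kept their direction and side of the threshold. Despite the sort, Ptprc, which encodes CD45, stood at 17.4 CPM in iKO 1 and 159 to 345 CPM in iKO 2 to 6. In Ctrl it stood at 15.6 CPM in Ctrl 5 and 0.158 to 1.54 CPM in the others. iKO 1 and Ctrl 5 therefore stand between the groups, and results that rest on them are given with and without them.

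T cell receptor transcripts were counted in all iKO libraries, at low levels beside the melanoma markers, and were nearly absent from most Ctrl libraries. All 226 genes together had 103 counts in iKO 1 and 1120, 1005, 1933, 1803 and 1795 in iKO 2 to 6. Ctrl 1 to 6 held 0, 5, 15, 29, 130 and 4. The groups overlapped only through iKO 1 and Ctrl 5, at 3.33 and 3.59 CPM, while iKO 2 to 6 held 28.5 to 65.6 CPM and the other Ctrl libraries at most 0.845 CPM. The mean was 39.9 ± 22.4 CPM in iKO and 0.838 ± 1.38 CPM in Ctrl (SD, n = 6 each). In bulk RNA, more T cells in the tumour, more left by the sort and more receptor RNA per T cell cannot be told apart. The cell type label describes tissue sorted negative for CD45, so these counts do not give the T cell content of the tumours.

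A count was seen for 118 members, all 118 of them in iKO and 14 in Ctrl, and 108 members had none in any library. Those with counts were 79 V, 30 J, 8 C and 1 D gene. Constant genes took 74.0% of the 7759 iKO counts, V genes 20.7%, J genes 5.16% and the D gene 0.129%. Of the 183 Ctrl counts, constant genes took 55.7%, V genes 43.2% and J genes 1.09%.

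By locus, beta held the most counts, then alpha, gamma and delta. The beta locus had 4430 counts in iKO and 84 in Ctrl, and alpha 2589 in iKO and 32 in Ctrl. Gamma had 571 counts in iKO and 10 in Ctrl, and delta 96 in iKO and 10 in Ctrl. Beta thus made up 57.1% of the iKO counts, alpha 33.4%, gamma 7.36% and delta 1.24%. Locus totals add genes of different number and length, and these shares describe counts, not molecules or cells.

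In single libraries the beta locus stood at 1.74 CPM in iKO 1 and 15.5 to 39.3 CPM in iKO 2 to 6, against 2.21 CPM in Ctrl 5 and at most 0.0583 CPM in the other Ctrl libraries. Beta therefore overlapped between the groups, through iKO 1 and Ctrl 5 alone. Alpha stood at 1.00 CPM in iKO 1 and 9.27 to 21.4 CPM in iKO 2 to 6, above all Ctrl libraries, the highest of which were Ctrl 5 (0.497 CPM) and Ctrl 4 (0.350 CPM). Gamma stood at 0.452 CPM in iKO 1 and 2.45 to 4.78 CPM in iKO 2 to 6, again above all Ctrl libraries (Ctrl 5, 0.221 CPM). Delta ran from 0.0646 to 0.883 CPM in iKO and overlapped with Ctrl 3 (0.211 CPM), where all 8 delta counts lay on the V gene Trdv4.

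The log2 ratio of mean CPM, iKO over Ctrl, was 6.47 for alpha, 5.89 for beta, 5.97 for gamma and 3.48 for delta. The beta, gamma and delta ratios each rested largely on 1 Ctrl library, the alpha ratio on Ctrl 5 (0.497 CPM) and Ctrl 4 (0.350 CPM). Without Ctrl 5 the ratio was 10.13 for beta, 7.97 for gamma and 7.37 for alpha, and without Ctrl 3 it was 5.43 for delta.

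**Figure D1:**
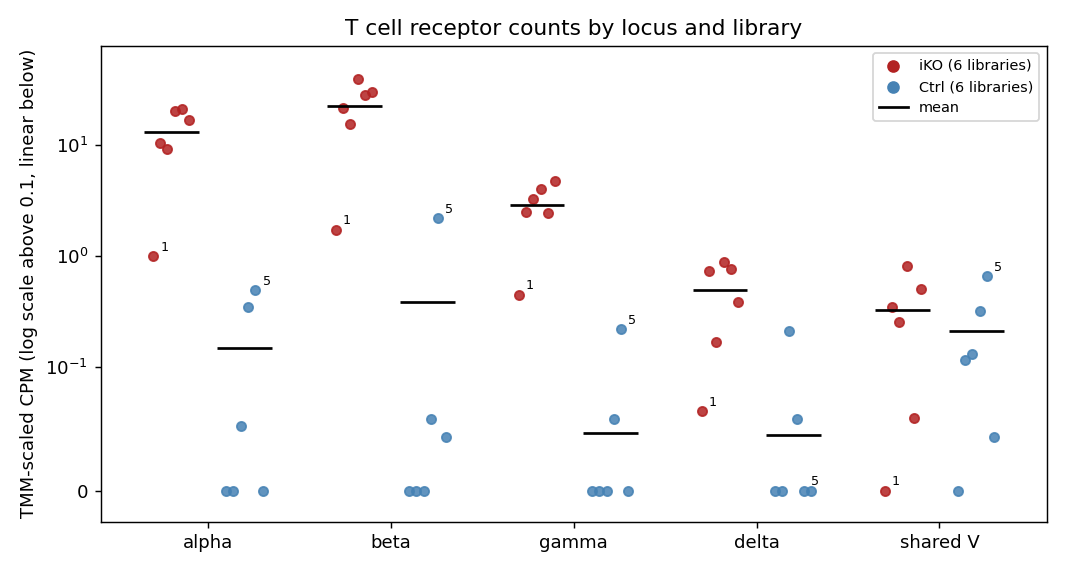
T cell receptor CPM (TMM-scaled, log axis above 0.1, linear below) summed by locus, with 1 point per library, iKO left and Ctrl right, and a bar at the mean of 6 libraries. iKO 1 and Ctrl 5 are numbered; they meet in the beta locus at 1.74 and 2.21 CPM, and the V genes shared by alpha and delta overlap throughout.

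Of the 226 members, 4 passed the filter on low counts, all of them constant genes: Trac, Trbc1, Trbc2 and Tcrg-C2. All 4 were called higher in iKO (edgeR quasi-likelihood test, Benjamini-Hochberg over 16164 genes, threshold 0.05), and none lower. Over all tested genes 25.0% were called higher and 21.4% lower. A member this rare in Ctrl could pass the filter only through iKO, so the count of calls is no evidence about the members as a set.

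Trac (chr14:54220521-54224206) encodes the constant region of the alpha chain. It had 31, 272, 262, 477, 566 and 465 counts in iKO 1 to 6, against 0, 0, 2, 12, 18 and 0 in Ctrl 1 to 6. Every iKO library lay above every Ctrl library, the nearest being iKO 1 and Ctrl 5, a pattern met by 11.8% of all genes past the filter. The mean was 10.6 ± 6.08 CPM in iKO and 0.150 ± 0.218 CPM in Ctrl, and the log2 fold change was 6.21 ± 1.07 (SE, n = 6 each, edgeR adjusted p = 0.000903). Without Ctrl 5 it was 7.18.

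Trbc1 (chr6:41538218-41539881) and Trbc2 (chr6:41546730-41548352) encode alternative constant regions of the beta chain. Trbc2 had 25, 271, 212, 492, 412 and 434 counts in iKO 1 to 6, and in Ctrl 30 counts in Ctrl 5 and 0 in the other 5 libraries. Trbc1 had 21, 229, 187, 330, 287 and 289 counts in iKO 1 to 6, and in Ctrl 36 counts in Ctrl 5, 2 in Ctrl 6 and 0 elsewhere. For both genes Ctrl 5 was above iKO 1, and the other libraries did not overlap.

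The log2 fold change was 6.16 ± 1.28 for Trbc2 (SE, n = 6 each, edgeR adjusted p = 0.00285) and 5.36 ± 1.23 for Trbc1 (adjusted p = 0.00467, same test). Both rest on Ctrl 5 for nearly all of their Ctrl counts. Without it Trbc2 had no Ctrl count and was at least 656-fold higher in iKO, by a floor of 3 counts over the other 5 Ctrl libraries. The count ratio of Trbc1 was then 716 (95% counting interval 198 to 5917, from 1343 counts in iKO and 2 in Ctrl).

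Tcrg-C2 (chr13:19304649-19307551) encodes a gamma chain constant region. It had 14, 53, 72, 60, 45 and 88 counts in iKO 1 to 6 and 0 in all 6 Ctrl libraries, Ctrl 5 included. The groups did not overlap, and iKO 1 was again the lowest of its group. Tcrg-C2 was at least 139-fold higher in iKO by a floor of 3 counts over the Ctrl group (edgeR adjusted p = 3.41e-05, n = 6 each). Unlike beta constant genes, it had no count in Ctrl 5, where Trbc1 and Trbc2 together had 66 counts at a depth of 36.4 M; whether the proportions differ was not tested.

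The other constant genes were too rare to pass the filter, and their p-values are from the edgeR fit without it, over 29337 genes. Trdc (chr14:54142851-54148868), the delta constant gene, had 0, 17, 5, 20, 15 and 13 counts in iKO 1 to 6 and 0 in Ctrl. Tcrg-C1 had 0, 5, 3, 20, 4 and 16 counts in iKO 1 to 6 and 0 in Ctrl. Both were thus seen in iKO 2 to 6 alone.

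By the same floor Trdc was at least 29.2-fold higher in iKO (edgeR adjusted p = 0.000826) and Tcrg-C1 at least 20.0-fold (adjusted p = 0.00308). Tcrg-C4 had 12, 7 and 8 counts in iKO 3 to 5 and 2 in Ctrl 4, and Tcrg-C3 had 4 counts, all in iKO 3. These 2 gamma constant genes did not pass the test (adjusted p = 0.0818 and 0.135). Exons of Trdc overlap those of Gm43434 and Trdv5 over 7.84% of their length, and the libraries did not keep strand.

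**Figure D2:**
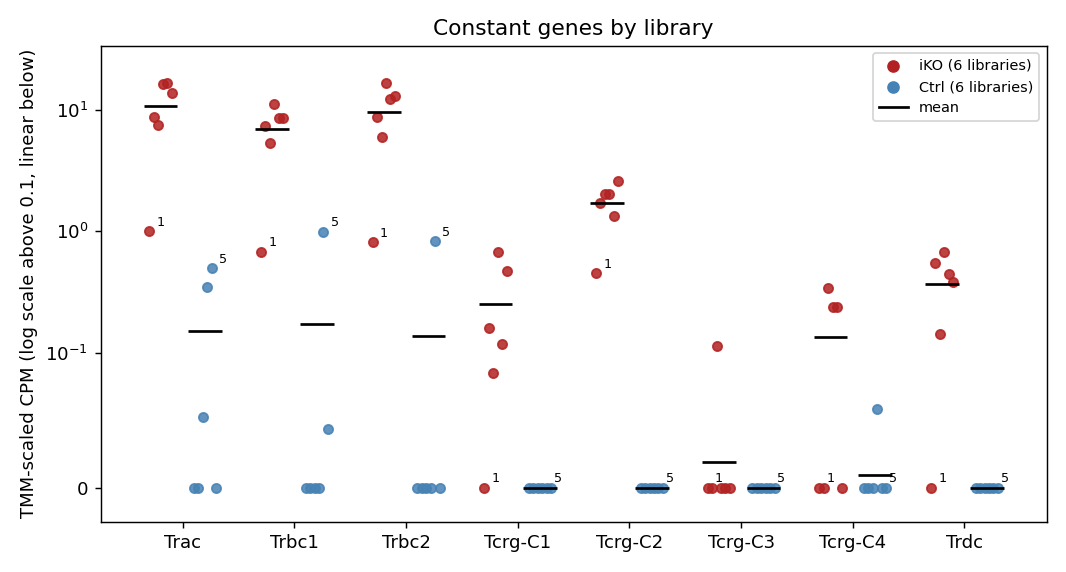
TMM-scaled CPM (log axis above 0.1, linear below) of the 8 constant genes, with 1 point per library, iKO left and Ctrl right, and a bar at the mean of 6 libraries. iKO 1 and Ctrl 5 are numbered; Trac and Tcrg-C2 do not overlap between groups, Trbc1 and Trbc2 overlap only through these 2 libraries.

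Per kilobase of gene length, as CPM per kb, the constant genes in iKO libraries fell into a high and a low set. Trbc2 had a level of 13.8 ± 8.14 CPM per kb, Trac 11.4 ± 6.50 and Trbc1 9.24 ± 4.82 (SD, n = 6), and these 3 levels lie within 1 SD of each other. This SD is the spread between libraries. Within every iKO library Trbc2 stood above Trbc1, though the division of reads between these genes is uncertain. Tcrg-C2 followed at 1.85 ± 0.812 CPM per kb. The levels of Tcrg-C1 (0.274 CPM per kb), Tcrg-C4 (0.138), Trdc (0.0945) and Tcrg-C3 (0.0291) were lower still, and neighbours among these 4 do not differ beyond their spread.

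Alpha-beta constant genes (Trac, Trbc1 and Trbc2) held most constant gene counts in every iKO library: 84.6, 91.1, 87.3, 92.4, 94.6 and 91.0% in iKO 1 to 6. The mean was 90.2 ± 3.62% (SD, n = 6), or 92.1% when counts were divided by gene length. The lowest share was in iKO 1, from 91 counts, with an exact binomial 95% interval of 75.5 to 91.3%. Summed over iKO, 5262 of 5743 constant gene counts were alpha-beta, 91.6% (exact interval 90.9 to 92.3%), 7.16% were gamma and 1.22% delta.

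In Ctrl the share rests on few counts. Ctrl 1 and Ctrl 2 had no constant gene count, and Ctrl 3 and Ctrl 6 had 2 each. Ctrl 4 had 14, of which 85.7% were alpha-beta, and in Ctrl 5 all 84 were (95.7 to 100.0%). Over Ctrl 100 of 102 were alpha-beta, 98.0% (93.1 to 99.8%), above the iKO interval. But 84 of these counts are from 1 library, and with counts halved the Ctrl interval spans 89.6 to 99.95% and overlaps that of iKO. Among the constant genes of the chromosome 14 loci alone, Trac took 97.2% of the counts on Trac and Trdc (mean of 6 iKO libraries).

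Gamma counts exceeded delta counts in every iKO library, which is 411 gamma against 70 delta constant gene counts over iKO. Tcrg-C2 carried 332 of the 411. The gamma constant genes share sequence with each other: 25.4% of the 50-base windows of the Tcrg-C2 transcript also occur in another T cell receptor gene, 34.2% for Tcrg-C1 and 36.2% for Tcrg-C3, so the division among them is uncertain. Trac, Trdc and Tcrg-C4 share no such window.

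Trbc1 took a steady share of beta constant gene counts in iKO, 45.7, 45.8, 46.9, 40.1, 41.1 and 40.0% in iKO 1 to 6 and 42.1% over the group (exact interval 40.4 to 43.8%). The transcripts share 41.1% (Trbc1) and 44.0% (Trbc2) of their 50-base windows with another T cell receptor gene, so this split is uncertain too. In Ctrl 5 the share of Trbc1 was 54.5%, from 66 counts.

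The 13 beta J genes stand in 2 clusters, Trbj1 (7 genes), which lies before Trbc1 and is spliced to it, and Trbj2 (6 genes), which lies before Trbc2. In iKO the first cluster held 273 of 354 J counts, 77.1% (exact interval 72.4 to 81.4%), and in the libraries with beta J counts 60.0, 92.6, 75.3, 91.5 and 61.2% (iKO 2 to 6). Each of these 5 shares was above the share of Trbc1 in beta constant counts in the same library. Counting the 33 counts of Trbj2-6, which is annotated as a pseudogene, with the second cluster gave 70.5%. The difference was not tested, and the rule by which reads that cross the J to C junction were assigned is not given in the sources used here.

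Of the J genes, Trbj1-3 had the most counts, 0, 3, 19, 22, 28 and 4 in iKO 1 to 6 and 0 in Ctrl. Trbj1-4 followed with 0, 4, 6, 20, 9 and 20, and Trbj1-5 with 0, 2, 12, 4, 10 and 13, both with 0 in Ctrl. None of these 3 had a count in iKO 1, and all 3 passed the test in the edgeR fit without the filter (adjusted p = 0.00114, 0.00159 and 0.00411), at least 31.7-, 24.6- and 17.1-fold higher in iKO. Trbj1-6 and Trbj1-7, which lack the motif above, were counted as well: 28 counts in iKO and 1 in Ctrl for Trbj1-6, and 19 in iKO and 0 in Ctrl for Trbj1-7. In all, 12 of 13 beta J genes had a count, Trbj2-4 being the exception.

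Alpha J genes were far less counted. Their 42 iKO counts were 2.03% of the Trac counts, whereas beta J counts were 11.1% of beta constant counts. Traj2 had 2, 8 and 4 counts in iKO 4 to 6, at least 5.84-fold higher in iKO (edgeR without the filter, adjusted p = 0.0456). Traj7 (4 counts) and Traj16 (3 counts) did not pass. Gamma J was represented by Trgj2 with 3 counts in iKO 3, delta J by Trdj1 with 1 count in iKO 4. Trbd1, the D segment printed above, had 2, 3, 4 and 1 counts in iKO 2, 4, 5 and 6 and 0 elsewhere (at least 4.17-fold higher, adjusted p = 0.0436). The other 3 D genes had no count.

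The number of V genes with at least 1 count was 6, 35, 37, 44, 37 and 43 of 144 in iKO 1 to 6, against 0, 1, 2, 2, 7 and 1 in Ctrl 1 to 6. The groups overlapped through iKO 1 (6) and Ctrl 5 (7). The mean was 33.7 ± 14.0 in iKO and 2.17 ± 2.48 in Ctrl (SD, n = 6 each), or 39.2 in iKO without iKO 1 and 1.2 in Ctrl without Ctrl 5. The union over iKO was 79 V genes and over Ctrl 8.

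The number of genes seen follows the number of counts. V genes had 12, 231, 189, 425, 357 and 392 counts in iKO 1 to 6 and 0, 5, 13, 13, 46 and 2 in Ctrl 1 to 6. Rarefied to the 12 counts of iKO 1, iKO 2 to 6 were expected to show 8.79 to 9.58 V genes, against 6 in iKO 1, 4.48 in Ctrl 5 and 2 each in Ctrl 3 and Ctrl 4. Rarefied to 189 counts, iKO 2 to 6 showed 31.9 to 37.9 V genes, a narrower range than before rarefaction. Even counts outnumbered odd ones in the table (17553 values of 2 against 7776 of 1), and counts were not taken as independent molecules: rarefied numbers and binomial intervals describe counting error only. With counts halved, the interval of the alpha-beta share over iKO widened to 90.5 to 92.6%.

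**Figure D3:**
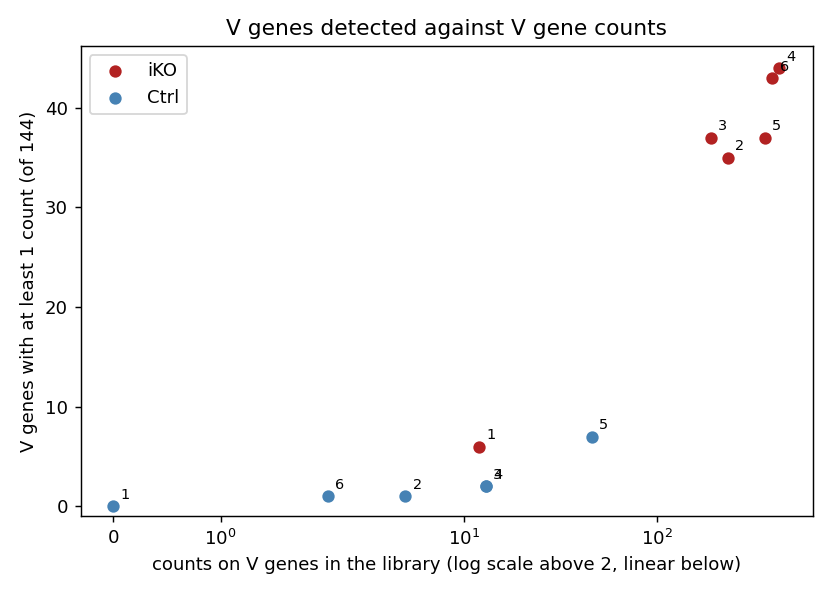
V genes with at least 1 count (y axis, of 144) against counts on V genes (x axis, log above 2), with 1 numbered point per library. iKO 2 to 6 lie at 35 to 44 genes, and iKO 1 lies with the Ctrl libraries, of which Ctrl 3 and Ctrl 4 coincide at 2 genes.

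Beta V genes were seen widely, alpha V genes mostly in single libraries. Of the 22 beta V genes, 18 had a count (all but Trbv4, Trbv5, Trbv21 and Trbv30), and 10 of them were seen in 5 or 6 iKO libraries. Of the 98 alpha V genes, 44 had a count, 23 of them in 1 iKO library and 2 in as many as 5. The loci had 877 (beta) and 474 (alpha) V counts in iKO, which are 27.5% of beta and 22.9% of alpha constant counts.

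Alpha V genes have near-copies: a median of 73.8% of their 50-base windows also occur in another T cell receptor gene, against at most 1.19% for any beta V gene. Of the 35 alpha V genes whose every window is shared, 2 had a count (3 counts in all), whereas 42 of the other 63 did (471 counts). How reads common to copies were counted is not known, and the part of shared sequence in the number of alpha V genes seen was not tested.

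Among beta V genes, Trbv2 (chr6:41047340-41047995) had 2, 8, 8, 62, 8 and 63 counts in iKO 1 to 6, and 1 count in Ctrl 5. Its ratio was 189 (counting interval 33.4 to 7518; edgeR without the filter, adjusted p = 0.000114), and iKO 4 and iKO 6 held most of its counts. Trbv20 had 0, 38, 7, 30, 15 and 30 and Trbv13-2 0, 11, 4, 40, 40 and 22 in iKO 1 to 6, both with 0 in Ctrl. They were at least 50.1-fold (adjusted p = 0.000821) and at least 48.8-fold higher in iKO (adjusted p = 0.00228).

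Every iKO library was above every Ctrl library for 5 members: Trac, Tcrg-C2, Trbv2, Trbv14 and Trbv19. The last 2, named after their values were seen, had 2 to 21 and 1 to 18 counts in iKO and 0 in Ctrl. Of all 29337 genes with a count, 7.1% showed this pattern. In the fit without the filter, 45 of the 118 members with a count were called higher and 0 lower (1 member had a negative fold change), beside 14.1% higher and 12.9% lower among all genes. Since every one of the 118 had its counts in iKO, nothing is read from that share. The 45 included 15 of 18 beta V genes, 10 of 12 beta J genes, 8 of 44 alpha V genes, 2 of 5 gamma V genes and 0 of 4 delta V genes.

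The leading V gene differed between libraries. It was Trbv14 in iKO 1 (4 of 12 counts), Trbv20 in iKO 2 (16.5% of V counts), Trgv2 in iKO 3 (11.1%), Trbv2 in iKO 4 (14.6%) and iKO 6 (16.1%), and Trav7-4 in iKO 5 (18.8%). No V gene exceeded 18.8% of the V counts of iKO 2 to 6. The leading beta V gene took 22.6 to 28.8% of beta V counts in these 5 libraries.

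Trav7-4 (chr14:53461099-53461738) was concentrated in 2 libraries, with 0, 2, 4, 42, 67 and 2 counts in iKO 1 to 6 and 0 in Ctrl. iKO 4 and iKO 5 held 109 of its 117 counts (93.2%), where it made up 39.3 and 45.3% of alpha V counts. It was at least 48.8-fold higher in iKO (edgeR without the filter, adjusted p = 0.0399). Of its 50-base windows, 75.1% occur in another T cell receptor gene. Trav13-1 had 14 counts each in iKO 2, 3 and 5 and 2 in iKO 4, and Trav3-3 had 2, 4, 6, 20 and 12 in iKO 2 to 6, both with 0 in Ctrl. Both passed the same test (adjusted p = 0.00694 and 0.00387), at least 18.4-fold higher in iKO.

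**Figure D4:**
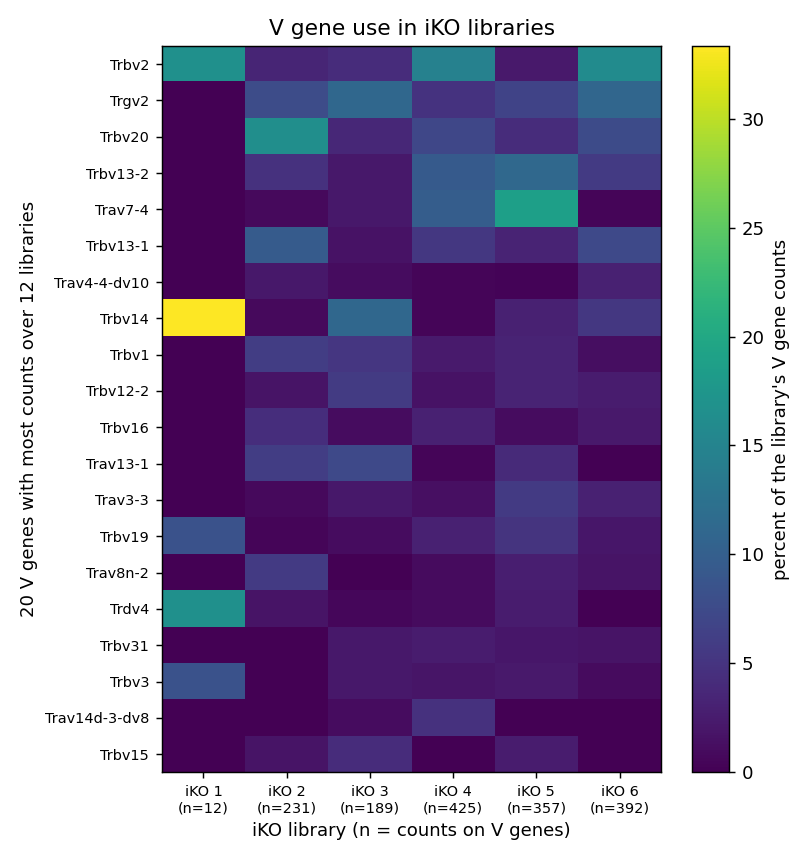
Share of each iKO library's V gene counts (colour, percent) for the 20 V genes with the most counts over 12 libraries; columns are libraries with their V counts. Trav7-4 is high in iKO 5 (18.8%), Trbv2 in iKO 4 and iKO 6, and iKO 1 rests on 12 counts.

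In the gamma locus, Trgv2 (chr13:19336573-19337167) had 0, 18, 21, 21, 24 and 43 counts in iKO 1 to 6, and in Ctrl 8 counts, all in Ctrl 5. It took 127 of the gamma counts in iKO and passed the test without the filter (count ratio 19.9, interval 9.79 to 47.0, edgeR adjusted p = 0.0161). Without Ctrl 5 it was at least 45.1-fold higher. Ctrl 5 thus held Trgv2 counts with no gamma constant gene count. Tcrg-V7 had 4, 1 and 12 counts in iKO 4 to 6 and 0 in Ctrl (at least 7.10-fold higher, adjusted p = 0.0437), and Tcrg-V3 had 8 counts in iKO 4 alone (adjusted p = 0.0912).

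Among V genes of the delta locus and those shared by alpha and delta, Trdv4 and Trav4-4-dv10 had counts in both groups, and the other 9 with a count had them in iKO alone. Trdv4 had 2, 4, 1, 4, 9 and 0 counts in iKO 1 to 6, and 8 in Ctrl 3 and 2 in Ctrl 4, which overlap (edgeR without the filter, adjusted p = 0.532). Trdv2-2 and Trdv5 had 2 counts each, in iKO.

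Trav4-4-dv10 (chr14:53683647-53684177) was the member with the most V counts in Ctrl: 0, 5, 2, 2, 1 and 12 counts in iKO 1 to 6, against 0, 5, 5, 11, 24 and 2 in Ctrl 1 to 6. The groups overlapped, and it did not pass the test (log2 fold change -0.95, edgeR without the filter, adjusted p = 0.477; count ratio 0.586, interval 0.336 to 0.992). It held 47 of the 79 V counts of Ctrl, and it was counted in Ctrl 2, which had no constant gene count. Of its 50-base windows 53.2% occur in another T cell receptor gene. Of the other shared V genes, Trav14d-3-dv8 had 2 and 20 counts in iKO 3 and iKO 4 (adjusted p = 0.0433) and Trav15-1-dv6-1 had 6, 2 and 1 in iKO 2, 4 and 5 (adjusted p = 0.0612).

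Receptor counts were set beside CD3, the signalling complex that every T cell receptor needs at the surface. The 226 genes had 1.02, 1.31, 1.43, 1.53, 1.46 and 1.26 counts per count on Cd3d, Cd3e, Cd3g and Cd247 in iKO 1 to 6. In Ctrl 5 it was 2.65 (130 counts against 49), and the other Ctrl libraries had 0 to 12 CD3 counts. The ratio thus varied little among iKO libraries whose receptor counts differed widely. Per 1000 Ptprc counts there were 169 to 235 receptor counts in iKO, and 0, 417, 2500, 547, 230.5 and 143 in Ctrl 1 to 6, where Ctrl 5 alone had more than 53 Ptprc counts.

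**Figure D5:**
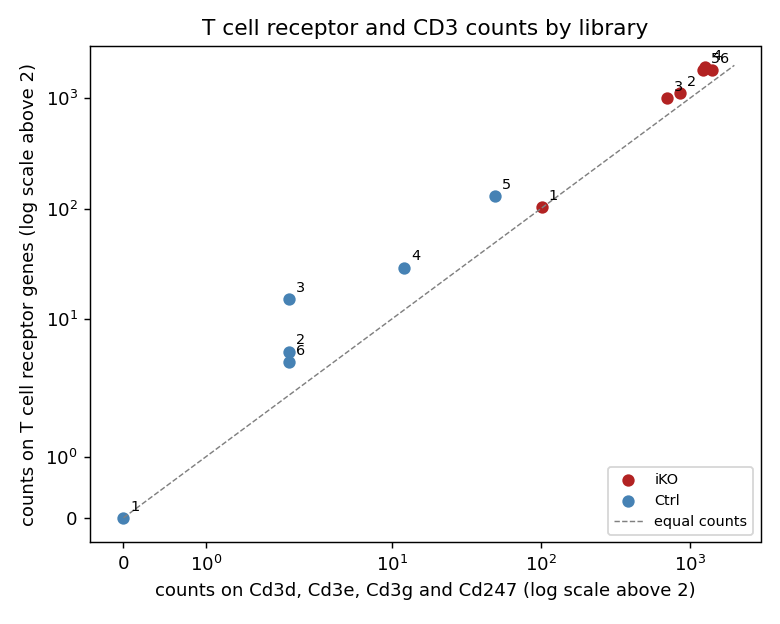
Counts on the 226 T cell receptor genes (y axis) against counts on Cd3d, Cd3e, Cd3g and Cd247 (x axis), both log above 2, with 1 numbered point per library and a dashed line of equal counts. iKO 1 (103 receptor counts) and Ctrl 5 (130) lie between the other libraries of the groups.

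Among CD3 and coreceptor genes, 6 of 7 passed the filter and all 6 were called higher in iKO, beside 25.0% of all tested genes. Most had hardly a count in Ctrl outside Ctrl 5 and so passed through iKO. Their median log2 fold change was 6.82, beside 0.02 over all tested genes. As most of these genes passed through iKO, nothing is read from the count of calls or from the median. The CD3 chains Cd3d, Cd3e and Cd3g had log2 fold changes of 6.88, 6.77 and 6.72 (edgeR adjusted p = 0.000350, 0.000381 and 0.000738). Cd8a and Cd8b1, the coreceptor of cytotoxic T cells, had 7.09 and 7.76 (adjusted p = 0.000701 and 0.000263), and Cd4, the coreceptor of helper T cells, which some myeloid cells also express, 3.45 (adjusted p = 0.00555). Cd8a had 78, 927, 784, 1319, 1132 and 1324 counts in iKO 1 to 6, and 42 in Ctrl 5 and 0 to 4 in the other Ctrl libraries. Cd4 stood at 0.323 CPM in iKO 1 and 2.04 to 3.84 CPM in iKO 2 to 6, against 0.828 CPM in Ctrl 5, 0.307 CPM in Ctrl 6 and at most 0.0642 CPM in the other Ctrl libraries, so that Ctrl 5 alone lay above iKO 1. Without Ctrl 5 the values were 8.83 for Cd3e, 8.64 for Cd3g, 9.80 for Cd8a and 4.56 for Cd4, and Cd3d and Cd8b1 then had no Ctrl count.

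Of the recombination genes, none of 4 passed the filter. Rag1 and Rag2 had 0 counts in all 12 libraries, which allows up to 0.102 CPM in the shallowest. Dntt, which adds bases at the joints, had 4 counts in iKO and 8 in Ctrl. Ptcra, the pre-receptor alpha chain, had 8 in iKO and 14 in Ctrl, all 14 in Ctrl 3.

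Of 8 genes of gamma-delta or innate-like T cell programmes, 3 passed the filter. By edgeR 1 was called higher and none lower, beside 25.0% and 21.4% of all tested genes. Zbtb16, a transcription factor of innate-like T cells, had 42, 29, 10, 38, 76 and 22 counts in iKO 1 to 6 and 27, 24, 16, 10, 13 and 23 in Ctrl 1 to 6. These values overlap, and its log2 fold change of 1.30 (edgeR adjusted p = 0.0190) lost the call with limma voom (adjusted p = 0.0885), without iKO 5 (0.0605) and without Ctrl 5 and iKO 1 (0.0510). Sox13 had a log2 fold change of 1.81 and did not pass (adjusted p = 0.0745), but was called with DESeq2 (adjusted p = 0.0487) and in edgeR without iKO 6 (0.0139); over all alternatives its adjusted p ran from 0.0139 to 0.603. The 5 genes below the filter had few counts: Blk 0 to 20 and Cd163l1 1 to 18 in iKO and 0 in Ctrl, and 5830411N06Rik 32, 12 and 8 in iKO 4 to 6 and 2 in Ctrl 5. These 3 were called higher in the edgeR fit without the filter (adjusted p = 0.00377, 0.00337 and 0.0205). Il23r had 6 counts in iKO 3 and Il17a 2 in Ctrl 4, and neither was called.

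Leukocyte markers moved with the receptor genes. The calls below stand beside 25.0% of all tested genes called higher and 21.4% lower. Summed T cell markers (5 genes, all called higher) stood at 3.85 to 59.7 CPM in iKO and 0 to 1.77 CPM in Ctrl. Natural killer cell markers (5 genes, 2 past the filter and both called higher) stood at 2.29 to 55.4 CPM in iKO and 0 to 1.93 CPM in Ctrl. The 2 past the filter, Klrk1 and Klrd1, had 4306 and 1533 counts in iKO. Klrb1c, Ncr1 and Klre1 had 354, 434 and 479. Which cells carried these counts was not tested. T cell and natural killer cell markers had hardly a count in Ctrl outside Ctrl 5. Those past the filter passed it through iKO, so nothing is read from their count of calls. Macrophage markers (3 of 3 called higher) stood at 64.7 to 546 CPM in iKO and 12.3 to 81.2 CPM in Ctrl, while for B cell markers (1 of 4 past the filter, not called) the sums were 1.42 to 9.37 CPM in iKO and 0.264 to 1.02 CPM in Ctrl, with Ms4a1 at 0 in every Ctrl library. Macrophage markers were higher in Ctrl 5 (81.2 CPM) than in iKO 1 (64.7 CPM). Endothelial markers summed to 6.66 to 22.8 CPM in iKO and 7.43 to 9.39 CPM in Ctrl. Of the 2, Pecam1, which encodes CD31, was called higher (log2 fold change 1.38, edgeR adjusted p = 0.000565), and without iKO 1 the lowest iKO sum was 15.01 CPM. Of the 4 melanoma markers, 3 were called lower in iKO: Tyr (log2 fold change -0.46, adjusted p = 0.00765), Dct (-0.42, 0.00525) and Mlana (-0.45, 0.00577). Fibroblast markers, none of them called, summed to 259 to 5860 CPM in iKO and 890 to 1031 CPM in Ctrl. Their part in the receptor result was not tested.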

How the data were processed

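Poly-A selected, unstranded RNA of 12 tumour libraries was sequenced, per the labels' protocols. The authors deposited raw counts per Ensembl gene, together with each gene's length, another deposited column used here for levels per kilobase. The submitters' processing notes name the build mm10. The aligner, the counter and their handling of reads that match several segments or span a junction are not given in the sources at hand. Groups follow the titles. Counts were tested with edgeR 4.0.16 in R 4.3.3 (filter of minimum count 10 and minimum total 15, TMM, robust quasi-likelihood test, group as the only term, all 12 libraries), with Benjamini-Hochberg adjustment and a threshold of 0.05. The SE is the absolute log2 fold change over the square root of F. The test was checked on simulated counts. Intervals are exact (Clopper-Pearson, 95%, SciPy 1.17.1), and a count of 0 allows 3 counts. Overlaps and shared 50-base windows come from GENCODE M21.

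Alternatives were DESeq2 1.42.0, limma 3.58.1 (voom), other size factors, no filter, a replicate block and omitted libraries; halved counts were added after even counts were seen to prevail. The labels do not say that the replicate numbers pair the libraries, and no pairing was used in the main test. No 2 libraries of a group were alike within sampling noise. The members, lists and rules were chosen with earlier results of these data known. Named genes were all constant, D and delta J genes, up to 3 genes with the most counts over 12 libraries of each V and J class (a rule that favours genes high in iKO), and list members with a call. Others were named after their values were seen. Some genes that met these rules are not reported here.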

Additional observations from a re-analysis of the deposited data

Results flagged for a closer look

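In groups of 4 to 6 libraries with a value, 32 sets of values were examined for a library far from the others of its group (Dixon's criterion). Of these, 13 sets held such a library. The criterion is set to flag about 1 in 20 groups of normally distributed values. Several sets here hold counts at 0 or shares at 100% in all libraries but 1, which is then flagged by construction. The number of flags is therefore not set against chance. The sets overlap, since the same counts enter several of them.

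In iKO, iKO 1 was lowest in V genes detected (6) and highest in the share of its leading V gene (33.3%, from 12 V counts), and iKO 3 was the only library with Tcrg-C3 (0.113 CPM).

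In Ctrl, Ctrl 5 was highest in total receptor CPM (3.59), beta CPM (2.21), gamma CPM (0.221), Trbc1 (0.993 CPM), Trbc2 (0.828 CPM) and V genes detected (7). Ctrl 3 was highest in delta CPM (0.211, all on Trdv4) and in receptor counts per CD3 count (7.5, from 15 and 2 counts). Ctrl 4 was lowest in the alpha-beta share (85.7%, from 14 counts) and the only Ctrl library with Tcrg-C4 (0.0583 CPM).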

How the results depend on the processing

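The 4 constant genes past the filter were called higher with DESeq2, limma voom, both other scalings, each library left out, and without iKO 2 and iKO 3. Counts of members called higher were 4 to 5 when single libraries were left out, the fifth being Trgv2, 45 without the filter and 3 of 3 tested with halved counts; 0 were called lower in any of these fits. The labels do not tie the replicate numbers to a common animal or batch, and whether same-numbered libraries shared a batch is not known. Correlations of deviations between same-numbered libraries ran from -0.129 to 0.249, and 1 of 6 correlated best with its own number. With the replicate block there were still 4 calls (Trac 6.65, Trbc1 6.76, Trbc2 7.43 and Tcrg-C2 8.92 on the log2 scale), and Zbtb16 lost its call (adjusted p = 0.0793). Leaving out 1 library gave log2 fold changes of 5.93 to 7.18 for Trac, 5.08 to 9.07 for Trbc1, 5.88 to 11.45 for Trbc2 and 8.80 to 9.17 for Tcrg-C2. Locus log2 ratios ranged over 6.21 to 7.37 (alpha), 5.63 to 10.13 (beta), 5.71 to 7.97 (gamma) and 3.22 to 5.43 (delta), and without both Ctrl 5 and iKO 1 they were 10.37 for beta and 8.19 for gamma. Of the 19 genes of the recognition and recombination list, 6 CD3 and coreceptor genes and 3 gamma-delta or innate-like genes passed the filter. Of the list, 7 were called higher and 0 lower, beside 25.0% and 21.4% of all tested genes. Without the filter 11 were higher, beside 14.1% of all genes with a count. Without Ctrl 5 and iKO 1 together 1 was lower, and leaving out 1 library gave 6 to 8 higher and 0 to 1 lower. As most CD3 and coreceptor genes passed through iKO, nothing is read from these counts. The alpha-beta share ranged over 89.3 to 91.3% and was 97.2% for Trac against Trdc alone. V genes detected averaged 31.6 to 39.2 in iKO and 1.2 to 2.6 in Ctrl when 1 library was left out; in iKO the mean was 8.67 at 10 or more counts and 8.59 at 12 counts, settings that admit fewer genes by construction. For the other changes the cause was not tested. Of the 6 Ctrl libraries, 5 held at most 29 receptor counts, which limits what can be said of their composition.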
